A study of Mus musculus with 6 samples.

Results

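The lines ♂M-1 and ♂M-3 are lines of mouse chromosome transfer embryonic stem cells whose names share a prefix. They were compared through the arrays whose titles bear these names, 4 of the 6 arrays of the study, with 2 biological repeats of each line. The remaining 2 arrays came from a further line, ZM-1, which entered the same fit and is given as context. The study concerned how maternal and paternal pronuclei differ in their power to reprogram. All lines grew on plates coated with gelatin, in medium with the cytokine LIF, PD0325901, which inhibits MEK, and CHIR99021, which inhibits GSK3β, and no feeder layer is named. The labels give no other treatment and no genotype, strain or sex. They spell out neither prefix and do not say whether ♂M-1 and ♂M-3 came from the same embryo. Each name stands for a single line, so the spread behind every test was that between repeats of a line, not between lines of a kind.

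Embryonic stem cells are the cultured counterpart of the epiblast of the early embryo. LIF acts through the factor STAT3 to hold them in the naive state, inhibition of MEK blocks the ERK signal that starts their exit from it, and inhibition of GSK3 relieves repression of pluripotency genes by way of β-catenin. Lines derived separately can differ in sex chromosomes, in imprinted genes, whose expression depends on the parent of origin, and in genes that answer interferons, a system that is weak in pluripotent cells.

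The labelled cell type was checked against marker genes. Probe sets respond differently, so these levels are descriptions and are not compared between genes. Intensities of Pou5f1, Sox2, Nanog, Esrrb and Zfp42, which define pluripotent cells, lay between 283 and 4089.7 in the 4 arrays. The 9 fibroblast markers examined lay between 12.6 and 908. Markers of trophectoderm lay between 32.9 and 81.3, of primitive endoderm between 23.4 and 122, of neural cells between 31.7 and 186 and of blood cells between 16.4 and 159. No marker value was 0, and background levels were not used here. Median intensity over all probe sets lay between 67.2 and 69.1 in the 4 arrays. The root mean square distance between arrays, on the log2 scale over all genes, was 0.14 between the repeats of either line and 0.22 to 0.25 between an array of ♂M-1 and an array of ♂M-3.

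Of 19938 genes, 1303 were called different between the lines, which is 6.54% of those tested (limma, adjusted p below 0.05). Of these, 642 genes were higher in ♂M-1 (3.22% of all genes) and 661 were higher in ♂M-3 (3.32%). The arrays of the lines did not overlap in any called gene, but with 2 arrays a line this adds little to the call. Genes not called could be separate too, Nanog, Klf4 and Esrrb among them, and their share was not counted. Most differences were small, with a median absolute log2 difference of 0.48 among called genes. A difference of at least 1 on the log2 scale, which is a doubling, was reached by 82 called genes (0.411% of all genes), 39 of them higher in ♂M-1 and 43 higher in ♂M-3. Log2 differences are given throughout as ♂M-1 minus ♂M-3, on the log2(intensity + 1) scale. They therefore understate the change of dim genes, and a fold is left out where the lower line lay below the lower quartile of the arrays (23.8 to 25.1). Of the 82 genes, 79 kept their call whichever array was left out, but only 285 of the 1303 did. Without ♂M-1 repeat 1, ♂M-1 repeat 2, ♂M-3 repeat 1 or ♂M-3 repeat 2 the number called was 762, 357, 467 and 419.

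**Figure D1:**
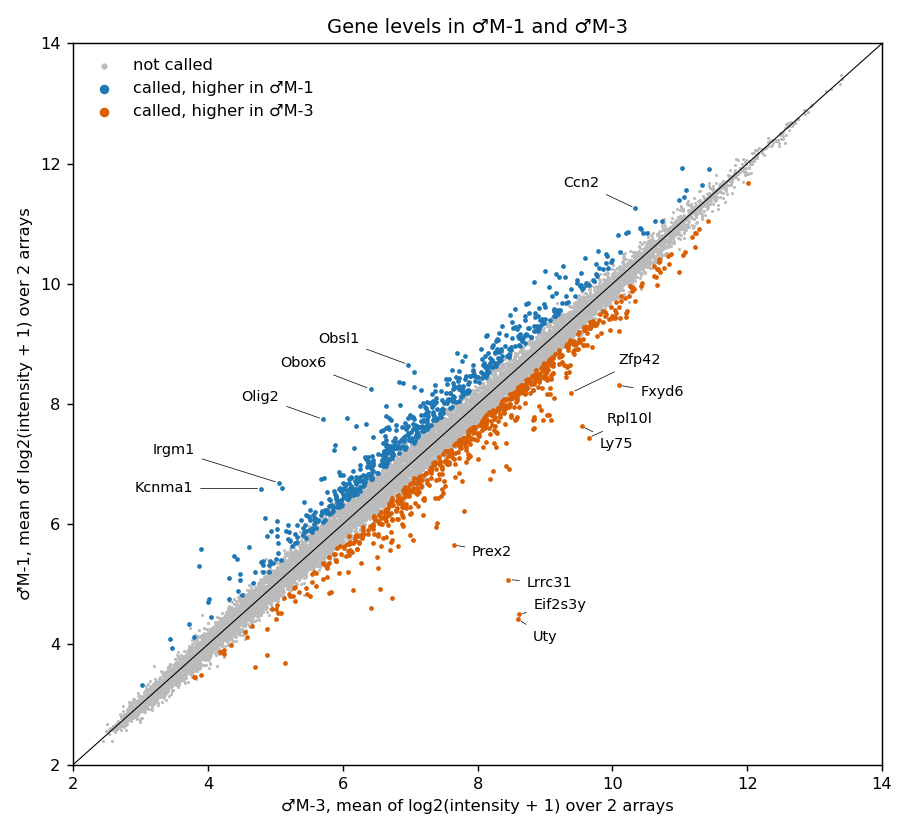
Mean log2(intensity + 1) of every gene in ♂M-3 (horizontal axis) and ♂M-1 (vertical axis), each over 2 arrays. Grey points are the genes not called, blue points the 642 called higher in ♂M-1 and orange points the 661 called higher in ♂M-3; the line marks equal levels. Most called genes lie close to the line, and the Y-linked genes Uty and Eif2s3y and the gene Lrrc31 lie farthest from it.

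The largest differences were those of genes on the Y chromosome. Uty, which encodes a relative of the histone H3 lysine 27 demethylases, measured 16.6 and 25.1 in ♂M-1 and 384 and 390.5 in ♂M-3 (log2 difference −4.18 ± 0.15 (SE), adjusted p = 3.83e-06). Eif2s3y, a Y-linked subunit of the translation initiation factor eIF2, measured 19.9 and 23.5 in ♂M-1 and 396 and 386 in ♂M-3 (log2 difference −4.11 ± 0.09 (SE), adjusted p = 1.09e-07). Both genes were near the lower quartile of the arrays in ♂M-1. In ZM-1 Uty measured 246 and 229.7, but Eif2s3y only 47.3 and 45.6. Uba1y, a ubiquitin-activating enzyme, measured 46.3 and 47.3 in ♂M-1 and 104 and 101 in ♂M-3 (log2 difference −1.12 ± 0.08 (SE), adjusted p = 0.000173), and 2 other probe sets of it at lower levels gave −0.28 each, while another gave −0.72. Zfy1, a zinc finger factor, was dim in both lines, with 11.1 and 11.7 in ♂M-1 and 26.1 and 23.6 in ♂M-3 (log2 difference −1.06 ± 0.16 (SE), adjusted p = 0.00629); this call was lost when ♂M-1 repeat 1, ♂M-1 repeat 2 or ♂M-3 repeat 1 was left out. Kdm5d, a histone H3 lysine 4 demethylase of the Y chromosome, was low in both lines, with 19.6 and 25.2 in ♂M-1 and 22.7 and 22.4 in ♂M-3 (log2 difference −0.02 ± 0.13 (SE), adjusted p = 0.954). Of 8 Y-linked genes measured, 4 were higher in ♂M-3 and 0 in ♂M-1, with a median log2 difference of −0.63, beside −0.02 over all genes. The RNA Xist, which coats an inactive X chromosome, was low in both lines at 125 and 133 in ♂M-1 and 90.4 and 82.6 in ♂M-3 (log2 difference 0.57 ± 0.12 (SE), adjusted p = 0.0224). Rlim, an X-linked activator of Xist, measured 934 and 983 in ♂M-1 and 759 and 741 in ♂M-3 (log2 difference 0.35 ± 0.08 (SE), adjusted p = 0.0293). These were the only called genes among 8 of X inactivation and escape, and neither call held in the absence of any single array of ♂M-1 or ♂M-3. Over the 293 X-linked genes above the median level the median difference was −0.06, beside −0.05 to −0.03 on single autosomes.

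Away from the Y chromosome, Lrrc31, a leucine-rich repeat gene, differed most, with 35.2 and 30.5 in ♂M-1 and 324 and 379 in ♂M-3 (log2 difference −3.38 ± 0.10 (SE), adjusted p = 1.21e-06), and was 10.4-fold higher in ♂M-3. Rpl10l, a testis-expressed copy of a ribosomal protein gene, measured 188 and 158 in ♂M-1 and 770.1 and 830.2 in ♂M-3 (log2 difference −2.21 ± 0.10 (SE), adjusted p = 1.49e-05), a 4.61-fold difference. Prex2, an exchange factor for the GTPase Rac, measured 47.9 and 50.8 in ♂M-1 and 194 and 206 in ♂M-3 (log2 difference −2.0 ± 0.08 (SE), adjusted p = 4.45e-06). In these 3 genes ♂M-3 stood apart, since the ZM-1 arrays lay at 33.3 and 36.4 for Lrrc31, 179 and 196 for Rpl10l and 49.2 and 48.8 for Prex2, close to ♂M-1. Ly75, an endocytic receptor known from dendritic cells, measured 227 and 171 in ♂M-1 and 728 and 761 in ♂M-3 (log2 difference −1.91 ± 0.12 (SE), adjusted p = 8.44e-05). Fxyd6, a regulator of the sodium pump, measured 340.2 and 294 in ♂M-1 and 984 and 1209 in ♂M-3 (log2 difference −1.78 ± 0.11 (SE), adjusted p = 8.44e-05). The calcium-binding proteins Necab1 and Calb2 measured 21.05 and 32.7 against 108 and 101 and 90.4 and 60.3 against 211 and 232 in the arrays of ♂M-1 against ♂M-3 (log2 differences −1.96 and −1.57, adjusted p = 0.000432 and 0.00111). Tmem64, the neighbour of Necab1 on chromosome 4, was also higher in ♂M-3, by −1.36 on the ♂M-1 minus ♂M-3 scale. Other genes of this size were Nckap1l, a subunit of the actin-regulating WAVE complex of blood cells (132 and 117 against 331 and 355), Hal, the enzyme that begins histidine breakdown (60.7 and 61.00 against 143 and 191), and St8sia1, which makes the ganglioside GD3 (72.7 and 56.3 against 174 and 163), with log2 differences of −1.46, −1.43 and −1.38 and adjusted p-values of 5.63e-05, 0.000509 and 0.00038. Of these, Hal alone was as high in ZM-1 as in ♂M-3, at 175 and 149.

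Among genes higher in ♂M-1, Olig2 differed most. Olig2 and its neighbour Olig1 on chromosome 16 encode factors of motor neuron and oligodendrocyte precursors. Olig2 measured 189 and 242 in ♂M-1 and 49.95 and 52.4 in ♂M-3 (log2 difference 2.04 ± 0.11 (SE), adjusted p = 5.13e-05) and was 4.11-fold higher in ♂M-1, and Olig1 measured 146 and 152 in ♂M-1 and 52.9 and 62.05 in ♂M-3 (log2 difference 1.36 ± 0.10 (SE), adjusted p = 0.000173). Olig2 was the only one of 18 neural genes to be called, and their median difference was 0.01. That share, 5.56%, was near the 6.54% of all genes. Obox6, a homeobox gene of oocytes and early embryos, measured 378 and 242 in ♂M-1 and 79.98 and 88.5 in ♂M-3 (log2 difference 1.84 ± 0.18 (SE), adjusted p = 0.000755), with a clear gap between the repeats of ♂M-1. A second, dim probe set of Obox6 differed by 0.21. Kcnma1, the pore of a calcium-activated potassium channel, measured 97.3 and 93.5 in ♂M-1 and 29.03 and 24.5 in ♂M-3 (log2 difference 1.80 ± 0.11 (SE), adjusted p = 5.63e-05), whereas its other probe set, also dim, differed by −0.04. It was low in ZM-1 too, at 16.6 and 19.5, so that ♂M-1 stood apart in this gene.

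Pttg1 (securin), which restrains the separation of sister chromatids until anaphase, measured 398 and 346 in ♂M-1 and 136 and 127 in ♂M-3 (log2 difference 1.49 ± 0.13 (SE), adjusted p = 0.000427). Fgfbp1, which releases fibroblast growth factors from the matrix, measured 153 and 165 in ♂M-1 and 56.8 and 59.7 in ♂M-3 (log2 difference 1.43 ± 0.08 (SE), adjusted p = 5.13e-05). Miip and Fv1 lie side by side on chromosome 4, and Fv1 is a gene of retroviral origin whose protein restricts murine leukaemia viruses. Miip measured 319 and 332 in ♂M-1 and 114 and 121 in ♂M-3 (log2 difference 1.47 ± 0.08 (SE), adjusted p = 4.61e-05) and Fv1 measured 97.7 and 94.1 in ♂M-1 and 34.8 and 32.1 in ♂M-3 (log2 difference 1.49 ± 0.08 (SE), adjusted p = 5.13e-05), which are differences of nearly the same size. In ZM-1 both were higher still, at 492 and 468 for Miip and 138 and 153 for Fv1. All 14 genes with the largest differences in each direction kept their call without each array and under each alternative setting that tested them.

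**Figure D2:**
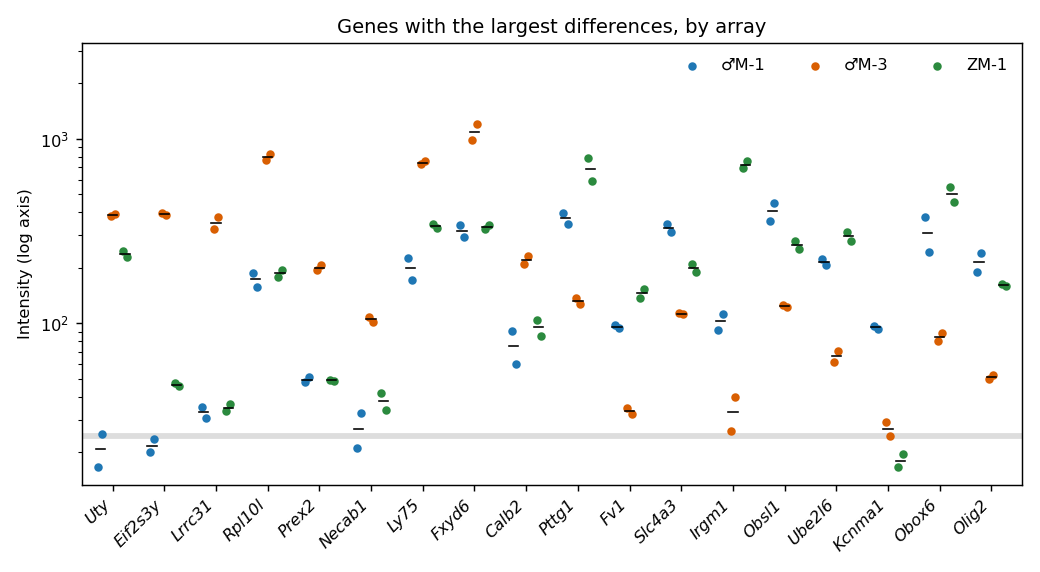
Intensity of 18 genes with the largest differences, 9 higher in ♂M-3 (left) and 9 higher in ♂M-1 (right), on a log axis. Each point is 1 array, each bar the mean of 2 arrays, and the grey band spans the lower quartiles of the 6 arrays. In every gene the arrays of ♂M-1 and ♂M-3 are separate, and ZM-1 is nearer to one or the other line depending on the gene.

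Where interferon-response genes differed, all but 1 were higher in ♂M-1. Of 41 measured members, 11 were higher in ♂M-1 and 1 in ♂M-3, beside 3.22% and 3.32% of all genes, and the median log2 difference was 0.16. Interferons act through receptors and STAT and IRF factors on promoters that hold an interferon-stimulated response element. The core of that element was searched for as GAAANNGAA on both strands, in windows from 250 bases before to 50 bases after the gene start. Windows of 60 bases from 4 promoters show where it lay in genes called higher in ♂M-1, from RefSeq on GRCm38.p6, written along the gene's own strand with the matches in capitals (a match on the other strand appears as its reverse complement, and overlapping matches form 1 run of capitals).
Irgm1 (chr11:48871421-48871480, - strand): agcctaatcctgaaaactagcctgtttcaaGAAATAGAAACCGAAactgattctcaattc
Ifit1 (chr19:34640755-34640814, + strand): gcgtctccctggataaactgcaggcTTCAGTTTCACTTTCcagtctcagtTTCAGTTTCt
B2m (chr2:122147523-122147582, + strand): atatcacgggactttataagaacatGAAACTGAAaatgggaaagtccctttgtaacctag
Oas1c (chr5:120812593-120812652, - strand): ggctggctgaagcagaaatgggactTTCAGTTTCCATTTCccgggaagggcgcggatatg
The core was present in 19 of the 29 measured interferon-response genes that had a promoter sequence (65.5%), and in 9.76% of the 27025 genes with a promoter sequence (8.56% of all 32851 promoters). It was present in 7 of 9 members called higher in ♂M-1 and in 12 of 19 members not called. The share was thus high in the list whether or not a gene differed between the lines.

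Irgm1, an interferon-induced GTPase that acts against intracellular pathogens and whose promoter holds a pair of overlapping cores, showed the largest difference of the list. It measured 92.4 and 113 in ♂M-1 and 26.1 and 39.7 in ♂M-3 (log2 difference 1.63 ± 0.17 (SE), adjusted p = 0.000933), a 3.1-fold difference from a low level. Lgals3bp, a secreted scavenger receptor protein, measured 241 and 257 in ♂M-1 and 93.6 and 103 in ♂M-3 (log2 difference 1.33 ± 0.09 (SE), adjusted p = 0.000102). Usp18, which removes the ubiquitin-like protein ISG15 and restrains interferon signalling, measured 77.5 and 85.6 in ♂M-1 and 39.3 and 45.1 in ♂M-3 (log2 difference 0.94 ± 0.10 (SE), adjusted p = 0.0012). Ddx58, the RNA sensor RIG-I, measured 907 and 1073 in ♂M-1 and 503 and 559.7 in ♂M-3 (log2 difference 0.89 ± 0.10 (SE), adjusted p = 0.00141). Ube2l6, the enzyme that conjugates ISG15, was not a member of the list but among the largest differences of all genes, with 224 and 208 in ♂M-1 and 61.9 and 70.7 in ♂M-3 (log2 difference 1.69 ± 0.09 (SE), adjusted p = 5.13e-05). Ifi27 measured 130.5 and 139 against 76.1 and 84.8 and Oasl2 85.1 and 84.3 against 52.99 and 55.6 in the arrays of ♂M-1 against ♂M-3 (log2 differences 0.74 and 0.63, adjusted p = 0.00277 and 0.00511). Trim12a was dim, with 45.96 and 32.6 against 15.3 and 12 (adjusted p = 0.002), and so was Ifit1, an RNA-binding effector, with 21.9 and 28.5 against 14.4 and 15.8 (adjusted p = 0.0167). The exception was Xaf1, an apoptosis regulator, with 70.03 and 61.8 against 86.8 and 88.8 (adjusted p = 0.0219), which lost its call without ♂M-1 repeat 2 or either ♂M-3 array. Of the 11 higher in ♂M-1, 8, 6, 7 and 7 kept their call without ♂M-1 repeat 1, ♂M-1 repeat 2, ♂M-3 repeat 1 and ♂M-3 repeat 2.

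ZM-1 lay far above both lines in several of these genes. In ZM-1, Irgm1 measured 696 and 755, Usp18 699.6 and 602, Oasl2 797 and 672 and Ifi27 687 and 595, so that the lines ranked ♂M-3, ♂M-1, ZM-1 in each of these genes without overlap of arrays. Summed over the whole list, intensity came to 12043 and 11961 for ♂M-1, to 10806 and 10605 for ♂M-3, and to 17558 and 16554 for ZM-1. Of 20 receptors, STAT and IRF factors, which act upstream, 1 was higher in ♂M-1 and 2 in ♂M-3. That is 15.0% called, beside 6.54% of all genes. The receptor subunit Ifngr2 measured 322 and 341 against 234 and 262 in ♂M-1 against ♂M-3 (adjusted p = 0.0199). Stat2, which partners in the factor that binds the response element, was lower in ♂M-1, with 275 and 245 against 376 and 384 (adjusted p = 0.00526), as was the adaptor Mavs, with 412 and 417 against 534 and 521 (adjusted p = 0.0396). The call of Stat2 was lost without ♂M-1 repeat 2 or ♂M-3 repeat 2, and that of Mavs without any single array of ♂M-1 or ♂M-3, under quantile normalization, with all probe sets and with the repeat number as a block. Irf7, itself interferon-induced, measured 49.8 and 49.99 against 40.1 and 37.4 and did not pass the test (adjusted p = 0.112).

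**Figure D3:**
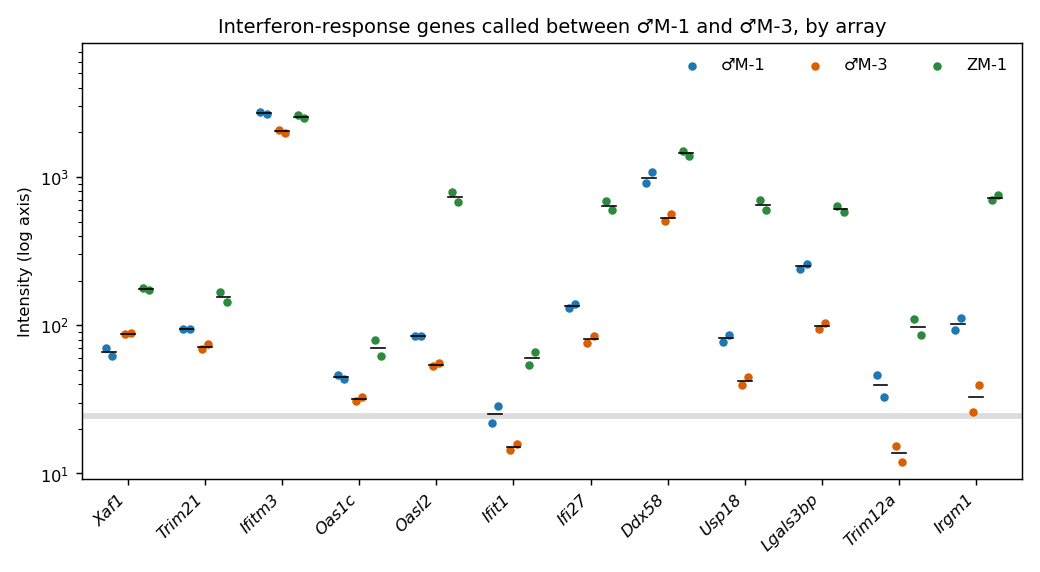
Intensity of the 12 interferon-response genes called between ♂M-1 and ♂M-3, on a log axis, with 1 point per array, a bar at the mean of 2 arrays and a grey band over the lower quartiles of the 6 arrays. Except for Xaf1, both ♂M-1 arrays lie above both ♂M-3 arrays, and the ZM-1 arrays lie above those of ♂M-1 in each gene except Ifitm3.

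Of 15 measured genes of antigen presentation by MHC class I, 5 were higher in ♂M-1 and 0 in ♂M-3, and 10 did not pass the test. The share called was 33.3%, beside 6.54% of all genes. The median was 0.18, and 11 of the 15 had differences above 0. H2-Q2 (−0.13) and Psmb10 (−0.09) were among the others. B2m, the light chain of the class I molecule, measured 1171 and 1150.4 in ♂M-1 and 742 and 740.4 in ♂M-3 (log2 difference 0.65 ± 0.07 (SE), adjusted p = 0.00121), a 1.56-fold difference; it is also a member of the list of 11 reference genes, in which it was the only one called. Tap1, a subunit of the peptide transporter of class I presentation, measured 103 and 111 in ♂M-1 and 71.7 and 62.8 in ♂M-3 (log2 difference 0.66 ± 0.09 (SE), adjusted p = 0.00307), and its partner Tap2 measured 86.8 and 92.5 against 69.5 and 61.9 (adjusted p = 0.0157). The immunoproteasome subunit Psmb9 measured 139.5 and 128 against 106 and 97.1 (adjusted p = 0.0371) and the class I heavy chain H2-Q4 232 and 241 against 176 and 175 (adjusted p = 0.0112). H2-DMa, Psmb9 and Tap1 are neighbours on chromosome 17. The calls of B2m and Tap1 held without each array, and 3, 2, 3 and 2 of the 5 calls were kept without ♂M-1 repeat 1, ♂M-1 repeat 2, ♂M-3 repeat 1 and ♂M-3 repeat 2. The core was found in 2 of 11 class I genes with a promoter, B2m among them.

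Fibroblast genes had the highest median difference of the 35 lists. Of 21 measured, 13 were higher in ♂M-1 and 0 in ♂M-3 (61.9% called, beside 6.54% of all genes). The median was 0.49. Dcn, a matrix proteoglycan that is also imprinted, measured 237 and 191 in ♂M-1 and 96.5 and 112 in ♂M-3 (log2 difference 1.02 ± 0.12 (SE), adjusted p = 0.00149), a 2.03-fold difference. Twist2, a mesenchymal transcription factor, measured 167 and 158 in ♂M-1 and 94.1 and 98.2 in ♂M-3 (log2 difference 0.75 ± 0.08 (SE), adjusted p = 0.000881), and Prrx1, another, 409 and 452 in ♂M-1 and 258 and 273 in ♂M-3 (log2 difference 0.69 ± 0.09 (SE), adjusted p = 0.00213). The collagen gene Col1a1 measured 908 and 865 in ♂M-1 and 587 and 512 in ♂M-3 (log2 difference 0.69 ± 0.09 (SE), adjusted p = 0.00231). Postn, a matrix protein, measured 730.0 and 523 against 371 and 379 (adjusted p = 0.0148) and the surface protein Thy1 346 and 359 against 251.4 and 239.5 (adjusted p = 0.00457). In ZM-1, Dcn (596 and 546) and Twist2 (220.4 and 211) lay above ♂M-1, whereas Col1a1 (810.4 and 827) lay between the lines. Of the 13 calls, 10, 8, 8 and 7 were kept without ♂M-1 repeat 1, ♂M-1 repeat 2, ♂M-3 repeat 1 and ♂M-3 repeat 2.

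As markers of the feeder cells on which such lines are often derived, 9 genes of the fibroblast list were examined together, and 8 of them were higher in ♂M-1. Their summed intensity came to 3554 and 3264 for ♂M-1, to 2189 and 2112 for ♂M-3, and to 3744 and 3643 for ZM-1. No marker was at 0 in any array. Vim, Fn1 and Pdgfrb, which are on the full list but not among the 9, did not pass the test (log2 differences −0.04, −0.03 and −0.04, adjusted p = 0.875, 0.891 and 0.844). Over the full list the sum came to 19048 and 19612 for ♂M-1, to 16976 and 16688 for ♂M-3, and to 18379 and 18237 for ZM-1. In RNA from whole cultures, fewer cells of a type and less RNA per cell cannot be told apart. The summed level of the 9 thus moved with the interferon, class I, primed epiblast, TGF-β, ERK target and p53 groups between these lines. Basement membrane and adhesion genes were called in both directions, and those higher in ♂M-1 share the direction of this sum by their selection. The part of the summed level in these differences was not tested. Of 15 genes of blood and immune cells, 0 were called by limma, and 2 had an unadjusted p below 0.05.

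Genes of basement membrane and adhesion differed in both directions. Of 29 laminins, type IV and XVIII collagens, integrins and relatives, 9 were higher in ♂M-1 and 3 in ♂M-3, with a median of 0.14. The share called was 41.4%, beside 6.54% of all genes. The laminin chain Lama1 was higher in ♂M-3, with 241 and 199 in ♂M-1 and 466 and 442 in ♂M-3 (log2 difference −1.05 ± 0.10 (SE), adjusted p = 0.000563), and so was Lamc1, with 1376 and 1189 against 1878 and 1767 (adjusted p = 0.0126). The chains Lamb1 and Lama4 were higher in ♂M-1, with 358 and 354 against 236 and 250.4 and 98.7 and 98.5 against 67.1 and 70.9 in the arrays of ♂M-1 against ♂M-3 (adjusted p = 0.00393 and 0.0151). The integrin subunit Itgb5 measured 676 and 711 against 474 and 451 (adjusted p = 0.0028). Calls of Lama1, Lamb1 and Itgb5 held without each array. Of the genes higher in ♂M-1, 4, 2, 2 and 2 of the 9 calls were kept without ♂M-1 repeat 1, ♂M-1 repeat 2, ♂M-3 repeat 1 and ♂M-3 repeat 2. Of those higher in ♂M-3, the corresponding numbers were 2, 1, 1 and 1 of 3. Lama1, Lamc1 and Lamb1 are also members of the primitive endoderm list. There 4 of 19 genes were higher in ♂M-1 and 2 in ♂M-3 (31.6% called).

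**Figure D4:**
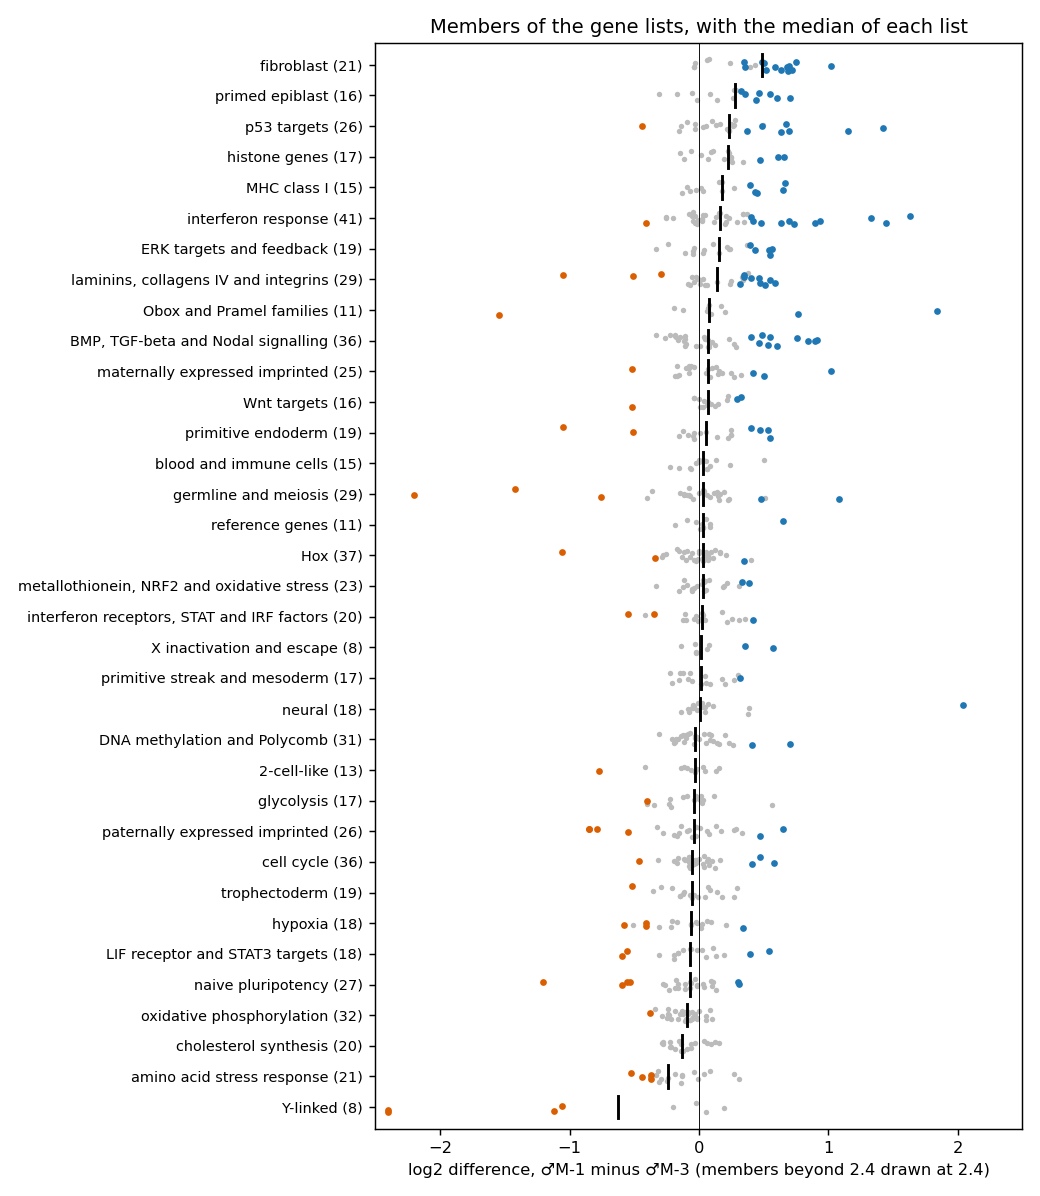
Log2 difference (♂M-1 minus ♂M-3) of each measured member of the 35 gene lists, with the number measured in brackets and a black bar at the median. Blue points were called higher in ♂M-1, orange points higher in ♂M-3, and grey points were not called. The fibroblast list has the highest median (0.49) and the Y-linked list the lowest (−0.63).

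The core pluripotency factors did not pass the test. Pou5f1 measured 3683 and 3738 against 3561 and 3667 in ♂M-1 against ♂M-3 (adjusted p = 0.845), Sox2 3111 and 2722 against 2916 and 2951 (adjusted p = 0.967) and Nanog 3771 and 3467 against 4082 and 4089.7 (adjusted p = 0.249). Of 27 naive pluripotency genes, 4 were higher in ♂M-3 and 2 in ♂M-1 (22.2% called, beside 6.54% of all genes). The median was −0.07. Zfp42 (Rex1), a zinc finger gene used as a reporter of the naive state, measured 283 and 299 in ♂M-1 and 673 and 668 in ♂M-3 (log2 difference −1.20 ± 0.08 (SE), adjusted p = 8.53e-05), and was 2.3-fold higher in ♂M-3. Tfcp2l1, a factor downstream of LIF and STAT3, measured 1556 and 1404 against 2171 and 2167 (adjusted p = 0.00456). Tcl1, a coactivator of the kinase Akt, measured 744 and 646 against 999.7 and 1100.0 (adjusted p = 0.009), and Prdm14, which represses DNA methyltransferase genes, 321 and 256 against 401 and 429.6 (adjusted p = 0.0249). Of these only the call of Zfp42 held without each array, and 4, 1, 3 and 2 of the 4 calls were kept without ♂M-1 repeat 1, ♂M-1 repeat 2, ♂M-3 repeat 1 and ♂M-3 repeat 2. The neighbouring genes Dppa2 and Dppa4 went the other way at a smaller size, with Dppa4 at 513 and 518 against 407 and 424 (adjusted p = 0.0425), and both calls were lost without any single array of either line. Klf4 and Esrrb did not pass, at 882 and 841 against 913 and 890.2 and 2018 and 1975 against 2176 and 2124 (adjusted p = 0.709 and 0.491). Dppa3 gave opposite signs in its probe sets (−0.28 and 0.15), neither past the test.

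Where genes of the primed epiblast, the stage that follows the naive state, were called, they were higher in ♂M-1. Of 16 measured, 7 were higher in ♂M-1 and 0 in ♂M-3 (43.8% called, beside 6.54% of all genes). The median was 0.28, and 12 of the 16 had differences above 0. Otx2 went the other way, with 189 and 207 against 246 and 244, and did not pass the test (log2 difference −0.31, adjusted p = 0.089). Pou3f1, Sox3 and Sox4 were also below 0 (−0.05, −0.01 and −0.17) and not called. Dnmt3b, a de novo DNA methyltransferase, measured 611 and 747 in ♂M-1 and 401 and 428 in ♂M-3 (log2 difference 0.70 ± 0.10 (SE), adjusted p = 0.00453). Nodal, the ligand that patterns the epiblast, measured 614 and 644 against 442 and 469 (adjusted p = 0.00866), and Lefty2, its inhibitor and target, 552 and 599.7 against 365 and 424 (adjusted p = 0.0157). Fst (follistatin), which binds activin, measured 330.4 and 354 against 191 and 263 (adjusted p = 0.0339), and the growth factor Fgf5 78.05 and 94.9 against 60.4 and 66.3 (adjusted p = 0.0372). The count depended on single arrays, since 3, 1, 1 and 4 of the 7 calls were kept without ♂M-1 repeat 1, ♂M-1 repeat 2, ♂M-3 repeat 1 and ♂M-3 repeat 2, and only that of Dnmt3b held in all cases. With all probe sets of the array tested together, 0 of the 7 remained. Dnmt3l, the cofactor of de novo methylation, measured 2066 and 2145 against 1516 and 1653 (adjusted p = 0.0167), and with Dnmt3b it was 1 of the 2 genes called among 31 of DNA methylation and Polycomb, beside 6.54% of all genes. The call of Dnmt3l was lost without any single array of ♂M-1 or ♂M-3. Primitive streak and mesoderm genes gave 1 call of 17 (Wnt3, lost without any single array), 2-cell-like genes 1 of 13 (Gata2, higher in ♂M-3) and trophectoderm genes 1 of 19 (Ascl2, higher in ♂M-3). Their shares called, 5.88%, 7.69% and 5.26%, were near the 6.54% of all genes. The fibroblast markers were higher in the same arrays as the called primed epiblast genes, and their part was not tested.

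Called genes of TGF-β family signalling were all higher in ♂M-1. Of 36 genes of BMP, TGF-β and Nodal signalling, 10 were higher in ♂M-1 and 0 in ♂M-3, with a median of 0.07. The share called was 27.8%, beside 6.54% of all genes. Ccn2, a matricellular target of TGF-β, measured 2387 and 2499.9 in ♂M-1 and 1242 and 1353 in ♂M-3 (log2 difference 0.91 ± 0.08 (SE), adjusted p = 0.000453). Id3, an inhibitor of basic helix-loop-helix factors induced by BMP, measured 265 and 307 in ♂M-1 and 159 and 158 in ♂M-3 (log2 difference 0.84 ± 0.09 (SE), adjusted p = 0.000892), the BMP antagonist Grem1 568 and 502 in ♂M-1 and 331 and 301 in ♂M-3 (log2 difference 0.76 ± 0.09 (SE), adjusted p = 0.00171), and the ligand Tgfb3 156 and 233 against 97.9 and 105 (adjusted p = 0.0119). The calls of Ccn2, Id3 and Grem1 held without each array, and 7, 4, 3 and 6 of the 10 calls were kept without ♂M-1 repeat 1, ♂M-1 repeat 2, ♂M-3 repeat 1 and ♂M-3 repeat 2. Grem1 was lower in ZM-1 than in either line, at 220.0 and 228. Among 19 ERK targets, 5 were higher in ♂M-1 and 0 in ♂M-3, namely Fosl1 (137 and 158 against 102 and 96.3), Phlda1 (82.3 and 91.1 against 55.2 and 62.6), Myc (287 and 323 against 205 and 213), Egr1 (422 and 466 against 341 and 316) and Fos (167 and 168 against 118 and 137), with adjusted p-values between 0.00693 and 0.0372. For the ERK targets, 4, 0, 1 and 1 of the 5 calls were kept without ♂M-1 repeat 1, ♂M-1 repeat 2, ♂M-3 repeat 1 and ♂M-3 repeat 2; the MEK inhibitor was in the medium of both lines. Of 18 genes of the LIF receptor and STAT3, 2 were higher in ♂M-1 (Myc and Fos, shared with the ERK list) and 2 in ♂M-3 (Tfcp2l1 and Bcl3). Bcl3, a cofactor of NF-κB, measured 527 and 480.5 against 732 and 794 (adjusted p = 0.00438), and Socs3, the feedback inhibitor of STAT3, 467 and 515 against 621 and 594, which missed the threshold (adjusted p = 0.0667). Wnt targets gave 2 higher in ♂M-1 (Lef1 and Nkd2) and 1 higher in ♂M-3 (Ascl2) of 16. Shares called were 26.3% of the ERK targets, 22.2% of the LIF receptor and STAT3 genes and 18.8% of the Wnt targets. The calls of Lef1 and Nkd2 were lost without any single array of ♂M-1 or ♂M-3, that of Ascl2 without any of them but ♂M-3 repeat 1, and 0 of the 3 held with the repeat number as a block. Fibroblast markers moved with the ERK and TGF-β groups too, and their part was not tested.

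Targets of p53 were higher in ♂M-1 in 7 of 26 measured and higher in ♂M-3 in 1 (Aen), with a median of 0.23. The share called was 30.8%, beside 6.54% of all genes. Pmaip1 (Noxa), which promotes apoptosis at the mitochondrion, measured 192 and 201 in ♂M-1 and 63.3 and 83.3 in ♂M-3 (log2 difference 1.42 ± 0.12 (SE), adjusted p = 0.000319), a 2.68-fold difference. Plk2, a polo-like kinase, measured 412 and 511 in ♂M-1 and 198 and 214 in ♂M-3 (log2 difference 1.15 ± 0.11 (SE), adjusted p = 0.000473). Perp, a membrane protein of apoptosis and desmosomes, measured 194 and 199 against 117 and 125 (adjusted p = 0.00183), and Phlda3, a repressor of Akt, 588 and 629 against 389 and 373 (adjusted p = 0.00143). The antiproliferative gene Btg2 measured 202 and 204 against 128 and 133 (adjusted p = 0.00843). The calls of Pmaip1, Plk2, Perp and Phlda3 held without each array, and 4, 4, 5 and 4 of the 7 calls were kept without ♂M-1 repeat 1, ♂M-1 repeat 2, ♂M-3 repeat 1 and ♂M-3 repeat 2. Cell-cycle genes gave 3 higher in ♂M-1 of 36, the cyclin Ccnd2 (1179.5 and 1404 against 856 and 867), the retinoblastoma gene Rb1 (298 and 301 against 209 and 222) and the kinase inhibitor Cdkn2b (122 and 131 against 93.4 and 95.9), and 1 higher in ♂M-3, the inhibitor Cdkn1b (336 and 310.0 against 429 and 461). Without the same 4 arrays in turn, 3, 0, 0 and 1 of the 3 calls higher in ♂M-1 were kept, and the call of Cdkn1b was lost without ♂M-1 repeat 2 or ♂M-3 repeat 2. Histone genes gave 3 higher in ♂M-1 of 17. Shares called were 11.1% of the cell-cycle genes and 17.6% of the histone genes. The linker histone H1f2 measured 370.1 and 373 against 244 and 241 (adjusted p = 0.0017), H1f1 2947 and 3069 against 2179.9 and 2166 (adjusted p = 0.00797) and H2bc4 733 and 726 against 501 and 428 (adjusted p = 0.0062). Here 3, 1, 2 and 1 of the 3 calls were kept.

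Called genes of the amino acid stress response were higher in ♂M-3. In the amino acid stress response, 4 of 21 genes were higher in ♂M-3 and 0 in ♂M-1 (19.0% called, beside 6.54% of all genes). The median was −0.24. The stress regulator Nupr1 measured 730.3 and 686 against 1007 and 1033 (adjusted p = 0.00472), the glutathione-degrading enzyme Chac1 274 and 276 against 378 and 369 (adjusted p = 0.0112), the serine synthesis enzyme Psat1 2137 and 2074 against 2699.9 and 2749 (adjusted p = 0.0192), and the mitochondrial Shmt2 1478 and 1412 against 1851 and 1877 (adjusted p = 0.0234). In this list 1, 0, 1 and 1 of the 4 calls were kept without ♂M-1 repeat 1, ♂M-1 repeat 2, ♂M-3 repeat 1 and ♂M-3 repeat 2. Hypoxia genes gave 3 higher in ♂M-3 of 18, Bhlhe40 (501 and 458 against 660.1 and 781), Egln1 (408 and 349 against 513 and 491) and Vegfa (698 and 588 against 844 and 857), and 1 higher in ♂M-1, Adm (150.3 and 159 against 127 and 117). Of the hypoxia genes higher in ♂M-3, 1, 0, 0 and 0 of the 3 calls were kept without ♂M-1 repeat 1, ♂M-1 repeat 2, ♂M-3 repeat 1 and ♂M-3 repeat 2, and Egln1 also lost its call under quantile normalization and median centring. Glycolysis gave 1 of 17, the hexokinase Hk2 (1001 and 929.7 against 1328 and 1225), and oxidative phosphorylation 1 of 32, the complex I subunit Ndufa9 (647 and 598 against 785 and 829), both higher in ♂M-3. Of 20 cholesterol synthesis genes, 0 were called by limma, 7 had an unadjusted p below 0.05, and the median was −0.13. Genes of metallothioneins and oxidative stress gave 2 of 23, Txnrd1 (1160.2 and 1276 against 892 and 968) and Gpx3 (253 and 239 against 193 and 198), both higher in ♂M-1. Shares called were 5.88% in glycolysis, 3.12% in oxidative phosphorylation and 8.7% here, near or below the 6.54% of all genes. They are not read as differences of the lists. Among hypoxia genes the share was 22.2%. The calls of Adm, Hk2, Ndufa9, Txnrd1 and Gpx3 were lost without any single array of ♂M-1 or ♂M-3.

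Imprinted genes of either parental origin differed in both directions. Of 26 paternally expressed genes, 4 were higher in ♂M-3 and 2 in ♂M-1, and of 25 maternally expressed genes, 3 were higher in ♂M-1 and 1 in ♂M-3. Among the paternally expressed genes 23.1% were called, and the share among the maternally expressed genes was lower. Both shares lay above the 6.54% of all genes. Plagl1, a zinc finger factor of the imprinted gene network, measured 396 and 339 in ♂M-1 and 689 and 586 in ♂M-3 (log2 difference −0.79 ± 0.11 (SE), adjusted p = 0.00325). Inpp5f, a phosphatase of inositol lipids, measured 52.8 and 55.7 in ♂M-1 and 99.9 and 97.4 in ♂M-3 (log2 difference −0.85 ± 0.09 (SE), adjusted p = 0.0011), the decarboxylase Ddc 60.8 and 53.9 in ♂M-1 and 101 and 107 in ♂M-3 (log2 difference −0.85 ± 0.10 (SE), adjusted p = 0.00171), and the translation factor Mcts2 416 and 414 against 599 and 614 (adjusted p = 0.00304). In the opposite direction, Peg10, a gene of retrotransposon origin needed in the placenta, measured 1752 and 1932 in ♂M-1 and 1133 and 1214 in ♂M-3 (log2 difference 0.65 ± 0.08 (SE), adjusted p = 0.00282). Among maternally expressed genes, Phlda2, a growth restrictor of the placenta, measured 1379 and 1589.9 against 1064 and 1157 (adjusted p = 0.0351) and the serotonin receptor Htr2a 158 and 178 against 114 and 122 (adjusted p = 0.00972). These values do not show which parental copy of a gene was expressed. On the paternally expressed list, all 4 calls higher in ♂M-3 held without each array, and of the 2 higher in ♂M-1 that of Peg10 did. Of the 3 maternally expressed calls higher in ♂M-1, only that of Dcn, also a fibroblast gene, held without each array. The call of Phlda2 was lost without ♂M-1 repeat 2 or either ♂M-3 array, and with the repeat number as a block. Htr2a lost its call without ♂M-1 repeat 2 or ♂M-3 repeat 1. The genes of the Dlk1 to Meg3 cluster did not pass the test: Meg3 measured 1261 and 1399 against 1277 and 1200.3 (adjusted p = 0.588), Rian 122 and 120.4 against 147 and 127 (adjusted p = 0.394) and Dlk1 190.3 and 239 against 202 and 206 (adjusted p = 0.826). Igf2, Mest and Nnat did not pass either, at 933 and 1056 against 846 and 803, 688 and 833 against 847 and 842 and 69.6 and 93.5 against 85.9 and 96.5.

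Germline genes included some of the largest single differences and no common direction. Of 29, 3 were higher in ♂M-3 and 2 in ♂M-1 (17.2% called, beside 6.54% of all genes). Besides Rpl10l, the meiotic cohesin Stag3 measured 119 and 96.7 in ♂M-1 and 285 and 293 in ♂M-3 (log2 difference −1.42 ± 0.10 (SE), adjusted p = 0.000173) and the germ cell RNA-binding protein Dazl 54.5 and 46.6 against 82.8 and 89.5 (adjusted p = 0.00674). Tex15, which silences transposons in male germ cells, measured 315 and 287 in ♂M-1 and 138 and 146 in ♂M-3 (log2 difference 1.08 ± 0.08 (SE), adjusted p = 0.000173), and Tex19.1, a gene of pluripotent and germ cells, 105 and 97.02 against 69.3 and 74.96 (adjusted p = 0.0183). Of 11 genes of the Obox and Pramel families, 2 were higher in ♂M-1 and 1 in ♂M-3 (27.3% called, beside 6.54% of all genes). Pramel13 was higher in ♂M-3 (135 and 107 against 324 and 381, adjusted p = 0.000318), whereas Pramel12 was higher in ♂M-1 (227 and 210.2 against 116 and 142, adjusted p = 0.0169), as was Obox6. Of 37 Hox genes, Hoxc12 stood out, with 106 and 102 in ♂M-1 and 211 and 223 in ♂M-3 (log2 difference −1.05 ± 0.09 (SE), adjusted p = 0.000283), and Hoxc13 and Hoxc8 were also called, in opposite directions (−0.34 and 0.35). The share of Hox genes called, 8.11%, was near that of all genes. Calls of Tex19.1 and Hoxc13 were lost without any single array of ♂M-1 or ♂M-3. That of Pramel12 was lost without ♂M-1 repeat 1, ♂M-1 repeat 2 or ♂M-3 repeat 1. Hoxc8 lost its call without ♂M-1 repeat 2 or either ♂M-3 array, and Dazl without ♂M-1 repeat 2 or ♂M-3 repeat 2.

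Some differences came in blocks of neighbouring genes. Among measured genes in chromosome order, 10 runs of at least 3 neighbours were called in 1 direction, 2 higher in ♂M-1 and 8 higher in ♂M-3, with 32 genes in all. The longest runs held 4 genes. On chromosome 1, Obsl1, Inha, Stk11ip and Slc4a3 were higher in ♂M-1. Obsl1, a cytoskeletal adaptor, measured 358 and 452 in ♂M-1 and 126 and 123 in ♂M-3 (log2 difference 1.68 ± 0.11 (SE), adjusted p = 0.000102), Slc4a3, an anion exchanger, 344 and 313 in ♂M-1 and 114 and 112 in ♂M-3 (log2 difference 1.53 ± 0.09 (SE), adjusted p = 5.13e-05), and Stk11ip, a partner of the kinase LKB1, 252 and 237 against 138 and 161 (adjusted p = 0.00421). The next gene, Epha4, was called in the opposite direction. A second, dim probe set of Slc4a3 differed by only 0.31. On chromosome 13, Fgf10, Nnt, Paip1 and 4833420G17Rik were higher in ♂M-3. Nnt, a mitochondrial enzyme that supplies NADPH and is partly deleted in C57BL/6J mice, measured 211 and 218 in ♂M-1 and 465 and 446 in ♂M-3 (log2 difference −1.08 ± 0.07 (SE), adjusted p = 0.00012), and Paip1, a translation factor, 385 and 353 against 674 and 629 (adjusted p = 0.000753). On chromosome 17, Btbd9, Glo1 and Dnah8 were higher in ♂M-3. The measured gene after Dnah8, Glp1r, was called in the opposite direction (log2 difference 0.74, adjusted p = 0.00528). Glo1, which detoxifies methylglyoxal and lies in a segment that varies in copy number among inbred mice, measured 1581 and 1552 in ♂M-1 and 2296 and 2499.7 in ♂M-3 (log2 difference −0.61 ± 0.08 (SE), adjusted p = 0.00307), with the same direction in its second probe set (−0.57). The axonemal dynein Dnah8 measured 595 and 589.6 against 1129 and 1053 (adjusted p = 0.00036).

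On chromosome 8, Zfp42 lay beside Triml2 and Triml1, tripartite motif genes of early embryos, which measured 654 and 552 against 1019.8 and 984 (adjusted p = 0.00231) and 391 and 415 against 629 and 619 (adjusted p = 0.0017). The 3 genes were thus higher in ♂M-3 together, and the calls of all of them held without each array. The other runs were Bhmt, Bhmt2 and Dmgdh of choline breakdown on chromosome 13, Ppp1r14d, Spint1 and Rhov as well as Acss2, Gss and Myh7b on chromosome 2, and Mutyh, Hpdl and Zswim5 as well as Trim63, Slc30a2 and Extl1 on chromosome 4. Gss (glutathione synthetase) measured 244 and 232 in ♂M-1 and 495 and 483 in ♂M-3 (log2 difference −1.04 ± 0.07 (SE), adjusted p = 0.00017), the zinc transporter Slc30a2 207 and 174 in ♂M-1 and 468 and 435 in ♂M-3 (log2 difference −1.24 ± 0.11 (SE), adjusted p = 0.000427), and Ppp1r14d, a phosphatase inhibitor, 57.2 and 53.3 in ♂M-1 and 124 and 130.4 in ♂M-3 (log2 difference −1.19 ± 0.10 (SE), adjusted p = 0.000418). One of 3 probe sets of Bhmt, a dim one, gave a difference of only 0.03. The runs are described with no test. They depended on single arrays. Without ♂M-1 repeat 1, ♂M-1 repeat 2, ♂M-3 repeat 1 and ♂M-3 repeat 2, 3, 1, 3 and 1 of the 10 runs kept the call of every member, and 24, 18, 23 and 20 of the 32 genes kept theirs. Inha and 4833420G17Rik lost their calls without any single one of these arrays, so that neither run of 4 genes stayed whole. The run of Triml1, Triml2 and Zfp42 was the only one that stayed whole in each case.

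**Figure D5:**
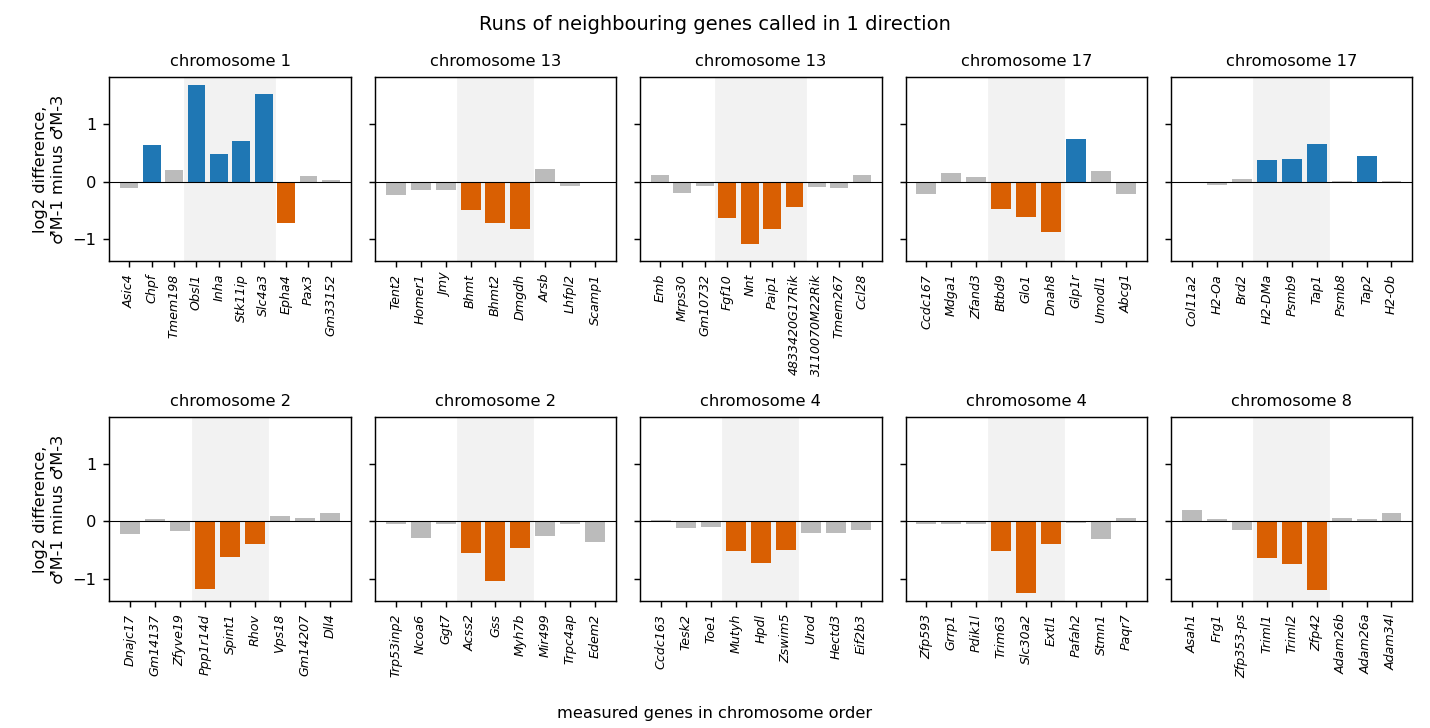
Log2 difference (♂M-1 minus ♂M-3) of the genes in the 10 runs of neighbouring called genes (shaded) and of the 3 measured genes on either side, in chromosome order. Blue bars were called higher in ♂M-1, orange bars higher in ♂M-3, and grey bars were not called. In 8 of the 10 runs the genes of the run were higher in ♂M-3.

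The third line was nearer to ♂M-1 in most of the 82 genes with a difference of at least 1. Of the 39 genes higher in ♂M-1, ZM-1 was nearer to ♂M-1 in 33, and of the 43 higher in ♂M-3 it was nearer to ♂M-1 in 37. It lay between the lines in 23 of the 39 and above both in 14, Irgm1, Ube2l6, Lgals3bp, Pttg1 and Obox6 among them. Of the 43, it lay between them in 29 and below both in 14. Over all genes, the root mean square distance was 0.23 to 0.24 between arrays of ZM-1 and ♂M-1 and 0.29 to 0.30 between arrays of ZM-1 and ♂M-3. The same ♂M arrays serve in each of these values.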

How the data were processed

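Gene expression was measured on a mouse whole-transcript array from total RNA labelled with biotin. The authors deposited 1 intensity for each probe set in each array, on a linear scale. GCOS 1.4 is named per the submitters' processing notes; normalization and background correction are given in none of the sources used here. No further normalization was applied. Of 35556 probe sets, 21789 carried 1 symbol in the platform annotation, 1621 several, and 12146 were unnamed here. Per gene, the brightest single-symbol probe set by mean over 6 arrays was used (19938 genes, 999 from several probe sets). Chromosomes, for 19856 genes, and gene order came from the RefSeq table of GRCm38.p6.

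Log2(intensity + 1) was fitted with 1 mean per line over all 6 arrays in limma 3.58.1 (R 4.3.3), with 3 residual and 6.03 prior degrees of freedom. P-values were two-sided, with Benjamini-Hochberg adjustment across all genes and a threshold of 0.05. The script was tested on simulated data. The labels call the repeats biological and name no separate cultures, so p-values measure only the spread between these arrays, which may be technical. The number of arrays limits the precision. No slide or scan batches were used here.

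Named were the top 14 genes per direction by size, among those called with a log2 difference of at least 1, no overlap of arrays and the higher line above the median gene, up to 5 called members per list, a fixed group of genes, and members of runs. Others named from a list, the promoter windows and the genes under the last heading were chosen after their values were seen. The 35 lists (714 symbols measured of 831) are described by counts and medians. The members and lists were chosen with earlier results of these data known. Repeat numbers did not pair the arrays: deviations correlated by r = −0.03 between ♂M-1 and ♂M-3, 0.07 between ♂M-1 and ZM-1 and −0.10 between ♂M-3 and ZM-1, over genes. Alternatives changed the normalization (quantile, median centring), the pseudocount (16), the filter on low genes (25th and 50th percentile), the probe sets (mean per gene, all probe sets), the arrays (4 arrays of the 2 lines, each array left out), the prior (intensity trend) and the repeat number as a block.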

Additional observations from a re-analysis of the deposited data

Results flagged for a closer look

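Probe sets outside the gene table also differed between ♂M-1 and ♂M-3 when all 35556 probe sets were tested together. Of 12146 probe sets without a symbol here, 93 were called, 46 higher in ♂M-1 and 47 higher in ♂M-3, with 88 distinct sets of values. Of 1621 probe sets with several symbols, 29 were called, 24 higher in ♂M-1 and 5 higher in ♂M-3, but these had only 12 distinct sets of values. They are reported as signal that the comparison of named genes did not use.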

How the results depend on the processing

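With all probe sets tested together, 442 probe sets were called in place of 1303 genes (235 higher in ♂M-1, 207 higher in ♂M-3), and 301 of the 1303 genes kept their call. An intensity trend gave 1061 higher in ♂M-3. The count with a difference of at least 1 was 53 at a pseudocount of 16, 53 among genes above the 50th percentile and 133 over all probe sets. Leaving out each array gave 357 to 1495 calls in all, 194 to 724 higher in ♂M-1 and 163 to 771 higher in ♂M-3.

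Over all probe sets, the called members were 6 interferon-response genes, 8 fibroblast genes, 4 p53 targets and 0 primed epiblast genes higher in ♂M-1, 0 and 2 naive genes higher in ♂M-1 and ♂M-3, and 0 interferon and 0 p53 genes higher in ♂M-3. The intensity trend gave 7 naive genes higher in ♂M-3, 11 p53 targets higher in ♂M-1 and 2 interferon genes higher in ♂M-3. Genes above the 50th percentile gave 1 Y-linked gene higher in ♂M-3, 11 p53 targets higher in ♂M-1 and 2 interferon genes higher in ♂M-3, and a pseudocount of 16 also gave 2 of the last. Without each array in turn, called members ranged from 6 to 12 (interferon) and 7 to 13 (fibroblast), from 1 to 7 (primed), 4 to 7 (p53) and 0 to 2 (naive) higher in ♂M-1, and from 1 to 4 (naive), 0 to 1 (interferon) and 0 to 1 (p53) higher in ♂M-3. Without ♂M-1 replicate 1, ♂M-1 replicate 2, ♂M-3 replicate 1 and ♂M-3 replicate 2, 38, 73, 57 and 59 of the 148 called genes that the naming rule gave lost their call, as did 72 when all probe sets were tested. The share of calls higher in ♂M-1 was 49.3%, between 44.7% and 54.0% under the settings that keep all arrays, and 59.2% without ♂M-3 replicate 2.

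With the repeat number as a block, 1070 genes were called, 1035 of them among the 1303, 82 reached a difference of at least 1, and 0 naive genes were higher in ♂M-1; the arrays share only a number. Among the 148 called genes that the naming rule gave, no direction reversed under any alternative. Leaving out an array could not have reversed one, since the arrays of the lines did not overlap in any called gene. The fits with a trend, a block or the 4 arrays keep the log2 difference of the main fit. Leaving out either ZM-1 array leaves its lone array without a spread, so that fit equals the one on the 4 arrays. Fewer features or arrays were tested in several alternatives, and otherwise the cause was not tested. Intensities near the lower quartile cannot be told from background here.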

Other observations

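Other genes with a difference of at least 1 that were higher in ♂M-1 included the following, chosen after their values were seen. Tnc (tenascin C) measured 1238 and 1136 against 522 and 499.9 in the arrays of ♂M-1 against ♂M-3 (log2 difference 1.21), the collagen Col12a1 736 and 690.2 against 355 and 356 (1.0), and Serpinf1, an inhibitor of blood vessel growth, 567 and 559.8 against 271 and 289 (1.01). Inhba, the activin A subunit, measured 722 and 806 against 361 and 392 (1.02), the growth factor Fgf7 160.4 and 189 against 83.1 and 89.9 (1.0) and Has2, which makes hyaluronan, 140.2 and 169 against 68.5 and 73.9 (1.10). Ptgs2 (cyclooxygenase 2) measured 1214 and 1306 against 598 and 627 (1.04), the cell adhesion gene Adam23 974 and 1117 against 458 and 451 (1.20) and Sfn (14-3-3 sigma) 1108 and 1197 against 563 and 587 (1.0). The nucleotide receptor P2ry2 measured 212 and 191 against 80.8 and 80.2 (1.31), and the costimulatory ligand Cd80 211 and 225 against 101 and 102 (1.09). Fibroblast genes were higher in the same arrays, and their part in these values was not tested.

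Among genes higher in ♂M-3, Adgrg1, an adhesion receptor coupled to G proteins, measured 227 and 163 against 449.6 and 465 (−1.24), the lipocalin Apod 236 and 190.2 against 468 and 535 (−1.24) and the kainate receptor subunit Grik3 294 and 256 against 573 and 544 (−1.02). Acss1, the mitochondrial acetyl-CoA synthetase, measured 221 and 227 against 544 and 505 (−1.22), beside Acss2 in the run on chromosome 2 above. The kinase Sgk3 measured 112 and 122 against 294 and 305 (−1.35), S100a1, a calcium-binding protein, 175 and 150.3 against 351 and 333 (−1.07), and Rpl39l, another variant of a ribosomal protein gene besides Rpl10l, 35.9 and 39.5 against 79.2 and 104 (−1.25).

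Called genes were spread over all autosomes. Their share of measured genes was between 4.59% on chromosome 19 and 9.0% on chromosome 1. On chromosome 11, 33 were higher in ♂M-1 and 58 in ♂M-3, whereas on chromosome 12 the counts were 28 and 12, and on chromosome 14 they were 37 and 20. These counts are given with no test.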
